A study of Homo sapiens with 3 samples.

Results

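The 46 genes described here encode the cornified envelope and its partners, S100 proteins and epidermal defence proteins. They were chosen by gene symbol from a fixed list and all 46 were found among the 29402 genes on the array, with loricrin under its deposited name LOR. Of them, 37 passed a filter on low values that kept 20582 genes. The arrays came from SAS cells, a human oral squamous carcinoma line. Cells of 2 arrays received siRNA against ARID1A, which encodes a DNA-binding part of the SWI/SNF remodeller, with Lipofectamine RNAiMAX as carrier. These arrays are called array 108 and array 109 after the numbers in their titles. The labels do not say what these numbers stand for, or whether the arrays received the same siRNA. The third array is labelled mock, and its title reads SAS NC. The labels do not say what NC stands for or what the mock cells received. SAS is 1 established line, so the arrays share its genetic background. No label names separate cultures for the siRNA arrays, so their spread may be technical, and the mock array has no replicate. Precision is limited by having 3 arrays.

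Stratified epithelia replace the plasma membrane of dying keratinocytes with a cornified envelope, a protein shell crosslinked by transglutaminases from precursors such as involucrin, loricrin and the small proline-rich proteins. Most precursor genes and most S100 genes lie side by side on chromosome 1 in the epidermal differentiation complex. S100 proteins are small calcium-binding proteins, and several of them, with lipocalin 2, elafin and SLPI, take part in the defence of the epithelium. In squamous carcinoma, late differentiation genes are commonly low, while S100 genes vary between tumours.

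The upstream sequences of 5 members are shown because these genes carry the results below. IVL and SPRR1B were near the background, SCEL and S100A14 differed most between the siRNA arrays among the detected members, and NIPAL4 was the detected member furthest above the mock array on both. Each is the 250 bases before the RefSeq start in GRCh38.p14, read 5′ to 3′ on the gene's strand. They lie at chr1:152908296-152908545 (plus strand) for IVL, chr1:153030953-153031202 (plus) for SPRR1B, chr13:77535456-77535705 (plus) for SCEL, chr1:153616326-153616575 (minus) for S100A14 and chr5:157459963-157460212 (plus) for NIPAL4. Capitals mark TGANTCA, a loose form of the AP-1 motif with any base at N, on either strand. They also mark TATAAA, the TATA box, on the gene's strand. The AP-1 consensus has G or C at N, so TGAATCA in SPRR1B is marked but lies outside it.
IVL: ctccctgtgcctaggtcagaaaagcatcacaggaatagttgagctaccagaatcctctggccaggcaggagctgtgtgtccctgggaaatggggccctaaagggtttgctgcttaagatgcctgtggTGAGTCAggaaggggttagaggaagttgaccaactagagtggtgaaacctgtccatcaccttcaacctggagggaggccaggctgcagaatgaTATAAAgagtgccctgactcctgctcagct
SPRR1B: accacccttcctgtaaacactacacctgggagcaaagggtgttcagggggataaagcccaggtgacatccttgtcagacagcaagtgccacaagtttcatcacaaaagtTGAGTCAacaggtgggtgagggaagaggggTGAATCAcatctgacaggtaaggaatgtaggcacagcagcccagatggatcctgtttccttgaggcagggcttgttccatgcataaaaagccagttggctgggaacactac
SCEL: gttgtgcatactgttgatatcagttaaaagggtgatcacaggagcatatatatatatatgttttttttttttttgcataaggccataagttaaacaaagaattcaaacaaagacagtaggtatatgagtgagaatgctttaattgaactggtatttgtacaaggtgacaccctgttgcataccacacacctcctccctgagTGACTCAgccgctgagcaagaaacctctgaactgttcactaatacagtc
S100A14: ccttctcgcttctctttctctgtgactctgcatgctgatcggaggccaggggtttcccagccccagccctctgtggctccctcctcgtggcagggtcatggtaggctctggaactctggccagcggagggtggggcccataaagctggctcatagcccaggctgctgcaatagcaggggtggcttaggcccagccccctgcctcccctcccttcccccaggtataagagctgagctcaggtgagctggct
NIPAL4: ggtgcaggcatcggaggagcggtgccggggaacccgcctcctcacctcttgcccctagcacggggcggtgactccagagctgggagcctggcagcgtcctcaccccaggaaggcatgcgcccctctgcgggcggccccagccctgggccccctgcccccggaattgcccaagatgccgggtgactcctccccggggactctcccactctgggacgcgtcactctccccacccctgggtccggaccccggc

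Of the 46 members, 37 had a promoter in the table, and the first listed start was used. The letters TGANTCA were found in 16 of 37 members (43.2%), against 6.60% of 27305 promoters of the same length. Matches with G or C at N were not counted apart. TATAAA was found in 15 of 37 (40.5%), against 7.17% of all. Among members with a promoter, TATAAA was in 4 of the 18 detected on all arrays and in 9 of the 16 detected on none, whereas TGANTCA was in 7 of 18 and 7 of 16. The other motifs searched were rare. AACNGGTT, bound by grainyhead-like factors, was in 2 members (5.41%), against 1.48% of promoters, and TTGCNNCAA, bound by C/EBP factors, in 1 (2.70%), against 1.66%. Both were searched on either strand, and the motifs did not overlap in the windows shown. No capitals appear in the S100A14 and NIPAL4 windows, which says only that these letters are not there.

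A gene is called detected where its log2 value lay above the authors' negative control mean of that array, which was 4.36 on array 108, 4.65 on array 109 and 4.43 on the mock array. ARID1A, on chromosome 1, was at log2 5.72 (array 108) and 5.32 (array 109), against 6.79 on the mock array, a mean difference of -1.27 ± 0.28 (SD, n = 2). It was lower on both siRNA arrays, as labelled, but did not pass limma (adjusted p = 1, over all genes tested). Of 10 keratinocyte lineage markers 7 were detected on all arrays, among them TP63 at 8.21 and 7.81 on the siRNA arrays against 8.05 on the mock array. The basal keratin KRT14 was at 4.62 and 4.40 against 4.62, near the control mean. Suprabasal keratins, which accompany terminal differentiation, were detected on no array (0 of 5). Markers of other cells were mostly undetected, with all arrays above the control mean for 3 of 8 neutrophil, 3 of 8 leukocyte, 1 of 8 fibroblast and 0 of 5 endothelial genes. PTPRC, the pan-leukocyte marker, was at 2.12 on every array.

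The listed genes fell into a detected and an undetected set. On all 3 arrays, 24 of 46 members were detected. Another 19 were detected on none, and 3 (IVL, ALOX12B and ECM1) on some. Of all 29402 genes, 14209 were detected on none. Over the 37 members tested the detected share was 64.9%, against 64.5% of all genes tested, a share near the background. In bulk RNA, fewer cells with a transcript and less of it per cell cannot be told apart. For 20 members the value was identical on all 3 arrays, and among those tested this held for 15 of 37 (40.5%), against 38.0% of all genes tested. Among the detected members 6 of 24 were identical, against 26.7% of 13283 genes detected on all arrays. These were LOR, SPRR2A, EVPL, TGM1, KRTDAP and SBSN. EVPL was at 5.89, but the others lay between 4.67 and 4.80, near the array 109 control mean of 4.65. Their detection is therefore marginal. KRTDAP had the same value, 4.75, as the neutrophil marker PRTN3 on every array. Where such exact ties come from was not tested. An identical value is therefore not read, here or below, as a measured lack of change. A detected value can still hold signal from other transcripts, and levels of different genes come from different probes, so each gene is read only against its own values and the control mean.

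**Figure D1:**
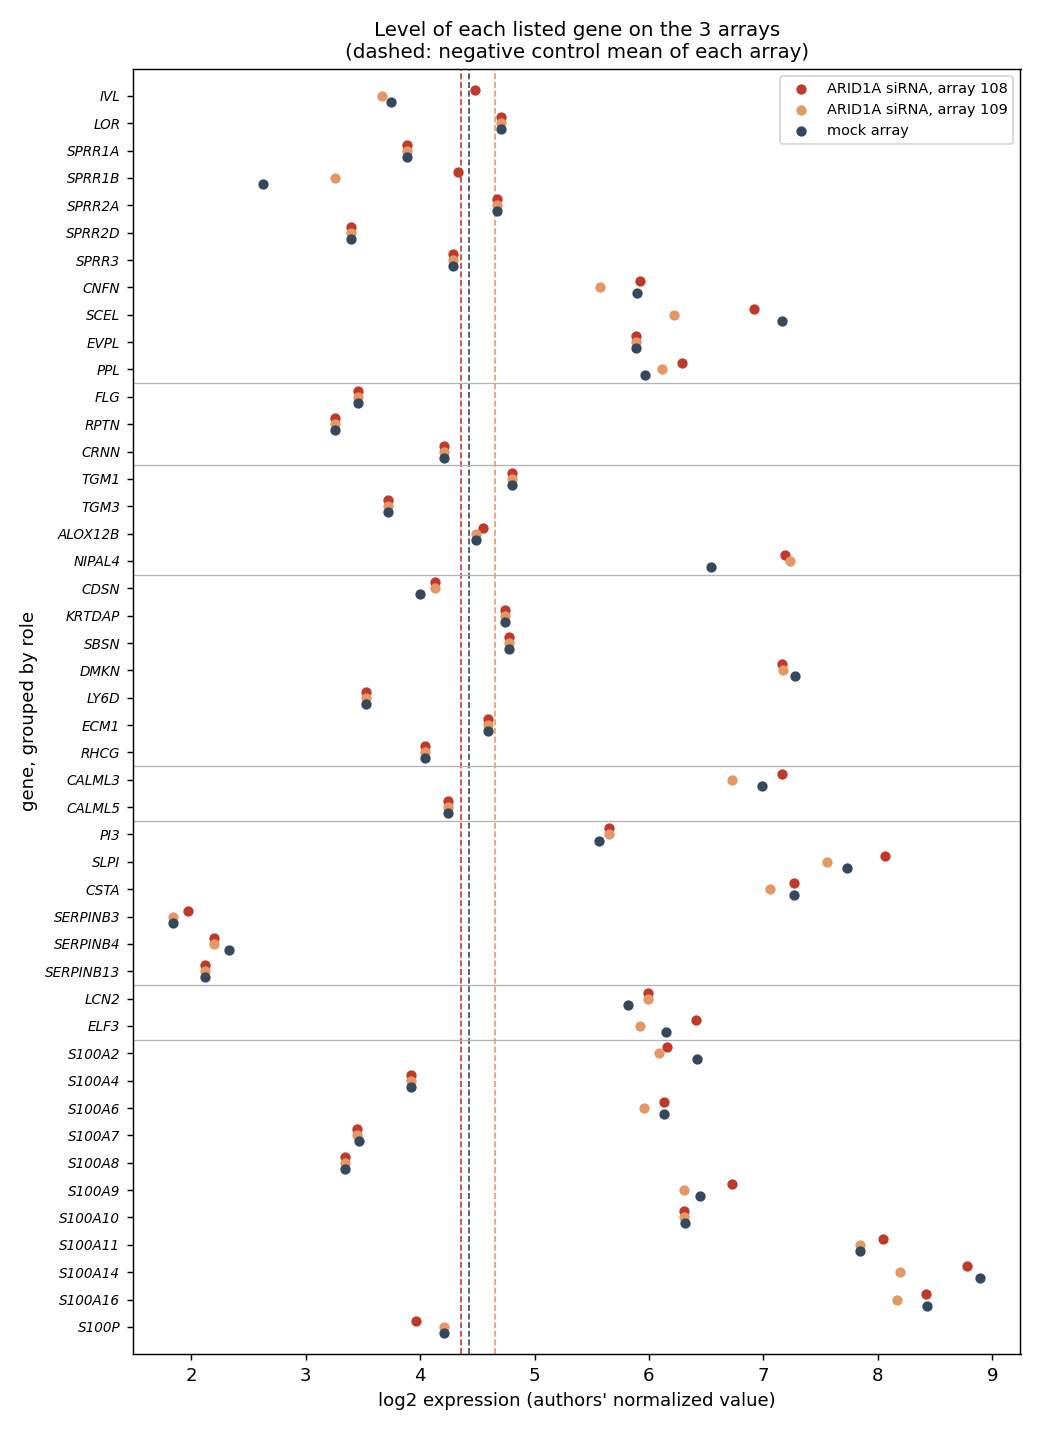
Log2 expression (x axis) of each of the 46 genes (y axis, grouped by role) on array 108, array 109 and the mock array, 1 point per array; dashed lines are the negative control means. The 3 serpins lie below the control means on every array, and S100A14 lies above them on every array, between 8.19 and 8.89.

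Of 11 envelope precursors, 6 were detected on all arrays, 4 on none and IVL on 1. IVL, involucrin, was at log2 4.48 (array 108) and 3.67 (array 109), against 3.74 on the mock array. It crossed the control mean on array 108 alone, and there it was at least 1.04-fold higher than on the mock array, counted from the mock control mean. SPRR1B, a small proline-rich precursor, was at 4.33 and 3.25, against 2.63 on the mock array. Both siRNA values were above the mock value, but all 3 lay below the control means, so no fold is given.

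LOR, loricrin, was at 4.71 and SPRR2A at 4.67 on every array, both close to the array 109 control mean of 4.65. SPRR2D, a close relative of SPRR2A with similar sequence, was at 3.39 on every array, SPRR1A at 3.89 and SPRR3 at 4.29. Single SPRR2 values are uncertain because probes may not separate the copies. EVPL and PPL, plakin proteins on which the envelope is first assembled, were detected on every array. EVPL was at 5.89 on every array. PPL was at 6.29 and 6.11 on the siRNA arrays, against 5.96 on the mock array.

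SCEL, sciellin, another envelope precursor, had the largest difference from the mock array on any 1 siRNA array among detected members. It was at log2 6.92 (array 108) and 6.22 (array 109), against 7.17 on the mock array. Both siRNA values were below the mock value, with log2 differences of -0.25 and -0.95 and a mean difference of -0.60 ± 0.50 (SD, n = 2; limma adjusted p = 1). Array 108 stayed within 1.5-fold of the mock array. CNFN, cornifelin, was at 5.92 and 5.57, against 5.90 on the mock array.

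The S100 fused-type genes were detected on no array. FLG, filaggrin, a large filament-binding protein of the granular layer, was at log2 3.46. RPTN, repetin, was at 3.25 and CRNN, cornulin, at 4.21. Each had the same value on all 3 arrays. The transglutaminase that crosslinks the envelope at the membrane, TGM1, was at 4.80 on every array, and the later enzyme TGM3 was undetected at 3.72. ALOX12B, a lipoxygenase of the lipid barrier, was at 4.55 and 4.48, against 4.48 on the mock array.

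NIPAL4, a membrane protein of the epidermal lipid barrier that is mutated in congenital ichthyosis, was the 1 member at least 1.5-fold from the mock array on both siRNA arrays. It was at log2 7.19 (array 108) and 7.23 (array 109), against 6.54 on the mock array. Both siRNA values were well above the mock value and close to each other. The folds were 1.57 and 1.61, and the mean difference was 0.67 ± 0.03 (SD, n = 2). Here and for the other genes, both differences use the same mock value. The SD therefore holds only the gap between the siRNA arrays and none of the error of the mock array. In limma it had an unadjusted p = 0.00891 and an adjusted p = 1. Of the 37 members tested, 1 was at least 1.5-fold higher on both siRNA arrays, against 0.243% of all genes tested. None was at least 1.5-fold lower on both, against 0.262%.

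Of 7 secreted and surface proteins of the upper epidermis, 3 were detected on all arrays. DMKN, dermokine, was at log2 7.17 on each siRNA array, against 7.28 on the mock array. KRTDAP and SBSN, its neighbours on chromosome 19, were at 4.75 and 4.78 on every array. CDSN, corneodesmosin, the adhesive protein of the horny layer, was undetected at 4.13 on both siRNA arrays, against 4.00 on the mock array. ECM1 was at 4.60 on every array, LY6D at 3.53 and RHCG, an ammonium transporter, at 4.05. Of the calmodulin-like genes, CALML3 was at 7.17 and 6.73 on the siRNA arrays, against 6.98 on the mock array, and CALML5, the skin form, was undetected at 4.25.

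Of 6 protease inhibitors, SLPI, CSTA and PI3 were detected on all arrays and the 3 serpins on none. SLPI, an inhibitor of neutrophil elastase, was at log2 8.06 (array 108) and 7.56 (array 109), against 7.73 on the mock array. The siRNA values lay on either side of the mock value. CSTA, cystatin A, was at 7.27 and 7.06, against 7.27 on the mock array, and PI3, elafin, was at 5.65 on both siRNA arrays, against 5.56. SERPINB3, squamous cell carcinoma antigen, was at 1.97 and 1.84, against 1.84 on the mock array. Its near-identical neighbour SERPINB4 was at 2.20 on both siRNA arrays, against 2.33, and SERPINB13 was at 2.12 on every array. Probes may not separate SERPINB3 from SERPINB4.

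LCN2, lipocalin 2, which binds bacterial iron carriers, was at log2 5.99 on both siRNA arrays, against 5.82 on the mock array. ELF3, an epithelial ETS transcription factor that acts on differentiation genes, was at 6.41 and 5.92, against 6.15 on the mock array. Its siRNA values lay on either side of the mock value.

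Of 11 S100 genes, 7 were detected on all arrays and 4 on none. S100A14, a member linked to epithelial cells, was at log2 8.78 (array 108) and 8.19 (array 109), against 8.89 on the mock array. Both siRNA values were below the mock value, with log2 differences of -0.11 and -0.70 and a mean difference of -0.41 ± 0.42 (SD, n = 2; limma adjusted p = 1). S100A16 was at 8.42 and 8.17, against 8.43. S100A11, a partner of annexins that is crosslinked into the envelope, was at 8.04 and 7.85, against 7.85 on the mock array.

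S100A2, a gene induced by p63, was at log2 6.16 and 6.09 on the siRNA arrays, against 6.42 on the mock array. S100A6 was at 6.13 and 5.95, against 6.13, and S100A10, the partner of annexin A2, was at 6.31 on both siRNA arrays, against 6.32. Of the calprotectin subunits, which form a heterodimer, one was detected. S100A9 was at 6.72 and 6.31, against 6.45 on the mock array, while S100A8 was undetected at 3.34 on every array. S100A4, S100A7 and S100P were also undetected: S100A4 at 3.92 on every array, S100A7, psoriasin, at 3.45 on both siRNA arrays against 3.47, and S100P at 3.96 and 4.21 against 4.21. Of the 8 neutrophil markers, ELANE (5.12), AZU1 (5.20) and PRTN3 (4.75) were above the control mean with the same value on every array. The other 5 were detected on none, among them FCGR3B at 2.81 on every array, and CEACAM8 at 1.82 on both siRNA arrays against 1.63. The arrays came from a carcinoma line, so values above the control mean for these markers are not read as neutrophil RNA.

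Set against the mock array, the members as a group did not move in one direction. Of the 37 tested, 5 were higher on both siRNA arrays (13.5%), against 13.1% of all genes tested. Those were PPL, NIPAL4, CDSN, PI3 and LCN2. Another 6 were lower on both (16.2%), against 16.2% of all genes: SCEL, DMKN, S100A2, S100A10, S100A14 and S100A16. Both shares were near the background. Among the 24 detected, 4 were higher on both, against 13.8% of detected genes, and 6 lower, against 21.1%. The median difference was 0 over the members tested and 0 over all genes tested. Values were identical on all arrays for 40.5% of these members and 38.0% of genes. Such ties hold a median at 0, so it says little about direction. Over the 24 detected members the median was 0 on array 108 and -0.055 on array 109, and 0 on both over all detected genes. Limma called 0 of 37 members and 0 of 20582 genes (0.0%), and at an unadjusted p under 0.05 it gave 1 member, with 194 genes higher and 212 lower. In the authors' deposited table, the flag for 2-fold differences marked 0 of the members on either siRNA array. Over all 53617 probe sets it marked 0.0504% as higher and 0.153% as lower on array 108, and 0.11% as higher and 0.213% as lower on array 109.

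**Figure D2:**
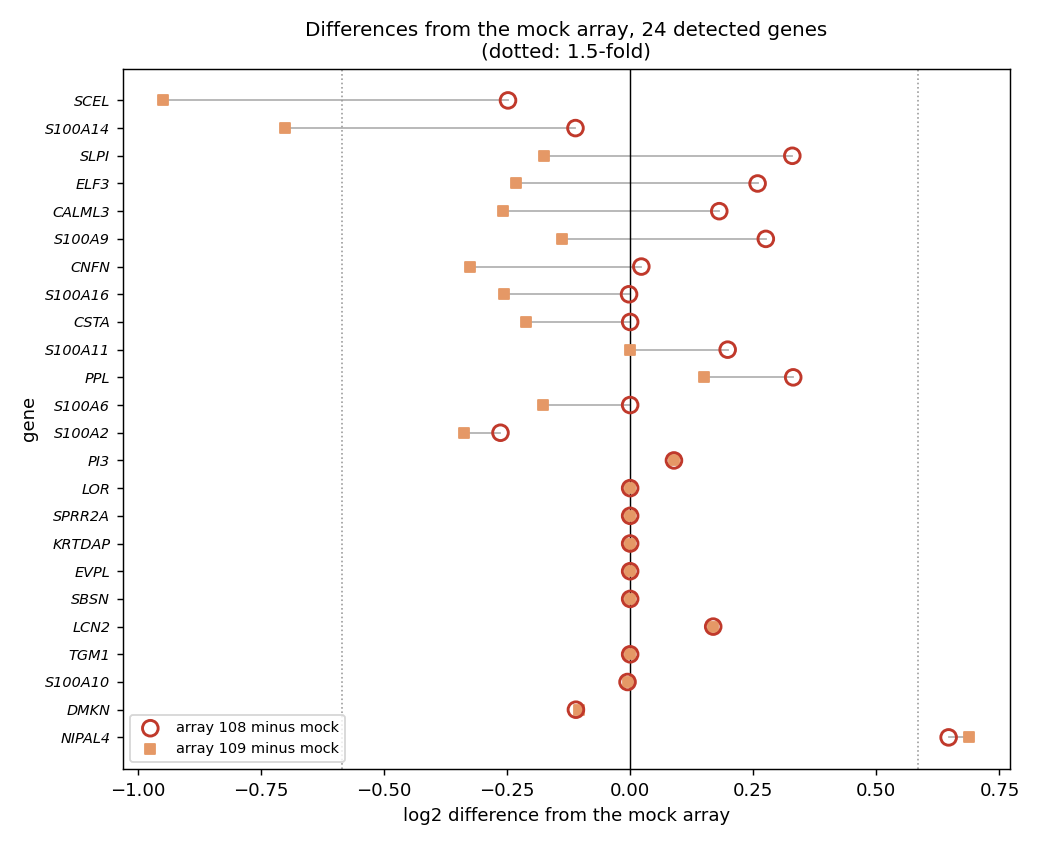
Log2 difference from the mock array (x axis) of the 24 members detected on all arrays (y axis), with open circles for array 108 and squares for array 109; dotted lines mark 1.5-fold. NIPAL4 lies past 1.5-fold on both siRNA arrays, and SCEL and S100A14 do so on array 109 alone.

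Between the siRNA arrays, most members that differed were lower on array 109. Of the 37 tested, 15 were lower on array 109 than on array 108 (40.5%), against 26.9% of genes tested, and 3 were higher (8.11%), against 25.0%. Among the 24 detected members, 13 were lower on array 109 than on array 108 (54.2%), against 31.0% of 13283 genes detected on all arrays. Another 2, NIPAL4 and DMKN, were higher on array 109 (8.33%), against 32.3% of genes. DMKN differed by only 0.00533 on the log2 scale. The other 9 were equal on both siRNA arrays. The 13 were CNFN, SCEL, PPL, CALML3, SLPI, CSTA, ELF3, S100A2, S100A6, S100A9, S100A11, S100A14 and S100A16, with array 108 higher by 1.05-fold for S100A2 up to 1.62-fold for SCEL. The median difference of array 109 from array 108 was -0.13 over the 24 members and 0 over the 13283 genes. With 1 array on each side there is no test. With quantile normalization, chosen for this count after seeing the data, 17 of 24 members were lower on array 109 and 6 higher, against 50.4% and 47.8% of detected genes. Median centring turns exact ties into small positive differences, and gave 13 lower and 11 higher, against 30.5% and 69.5%. The median over the members was -0.14 and -0.12 with these scalings.

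Past 1.5-fold, 2 of the 24 detected members, SCEL and S100A14 at 1.51-fold, were lower on array 109 than on array 108, against 1.98% of detected genes, and 0 were higher, against 3.1%. Array 109 was below the mock array in 13 of the 24 (54.2%), against 34.3% of genes, and above it in 4 (16.7%), against 28.7%. Array 108 was above it in 10 (41.7%), against 26.0%, and below it in 6 (25.0%), against 36.7%. Of the 24, 11 had their lowest value on array 109 (45.8%), against 21.6% of genes. These comparisons share arrays and are not independent.

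Other values moved along with this. Of the 10 keratinocyte lineage markers, 9 were lower on array 109 than on array 108, against 26.9% of genes tested. Among the 9, KRT14 (4.40), KRT6A (4.13) and KRT17 (4.62) lay below the control mean on array 109, so their differences are near the background. Against the mock array the list was mixed, with array 109 lower in 5 and higher in 4. KRT5, the basal keratin, was at log2 6.75 (array 108) and 5.77 (array 109), against 6.66 on the mock array, and SFN was at 11.51 and 10.91, against 11.37. DSG3 went the other way against the mock array, at 8.52 and 7.80, against 7.39. ARID1A was also lower on array 109 than on array 108. The negative control mean was higher on array 109, by the values given above. The part of these in the difference was not tested.

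**Figure D3:**
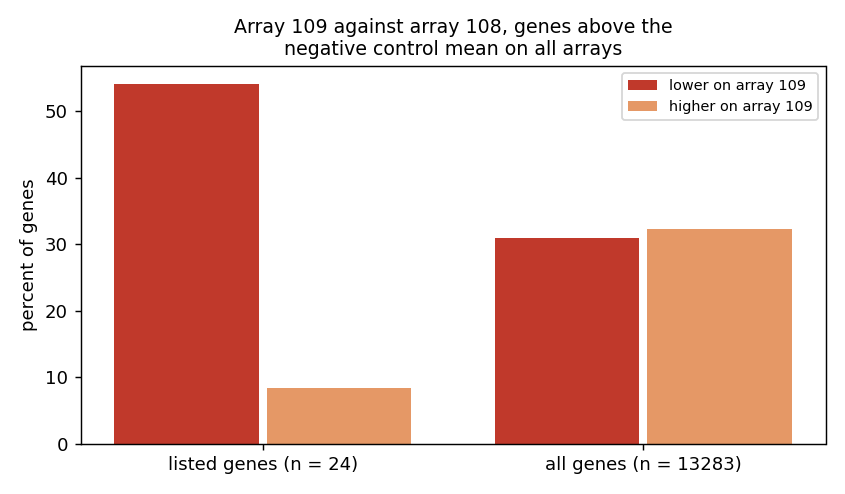
Percent of genes (y axis) lower or higher on array 109 than on array 108, for the 24 detected members and for all 13283 detected genes; the rest had equal values. Among members 54.2% were lower and 8.33% higher, against 31.0% and 32.3% of all genes.

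Along chromosome 1, 60 protein-coding genes of the complex were on the array from S100A10 to S100A1, in the order of GRCh38.p14, and 20 of them were members. Of all 29402 genes on the array, 45.2% were detected on all arrays, and 14209 genes on none. S100A10 and S100A11 at one end were detected on all arrays. Of the 44 genes between S100A11 and S100A9, which hold the filaggrin-like, late envelope, SPRR and loricrin genes, 10 were detected on all arrays and 31 on none. In the S100 block from S100A9 to S100A1, 7 of 14 were detected on all arrays, a share near that of all genes. Among the 10 was CRCT1, a cysteine-rich gene of the complex, at log2 8.29 and 8.22 on the siRNA arrays, against 7.87 on the mock array.

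**Figure D4:**
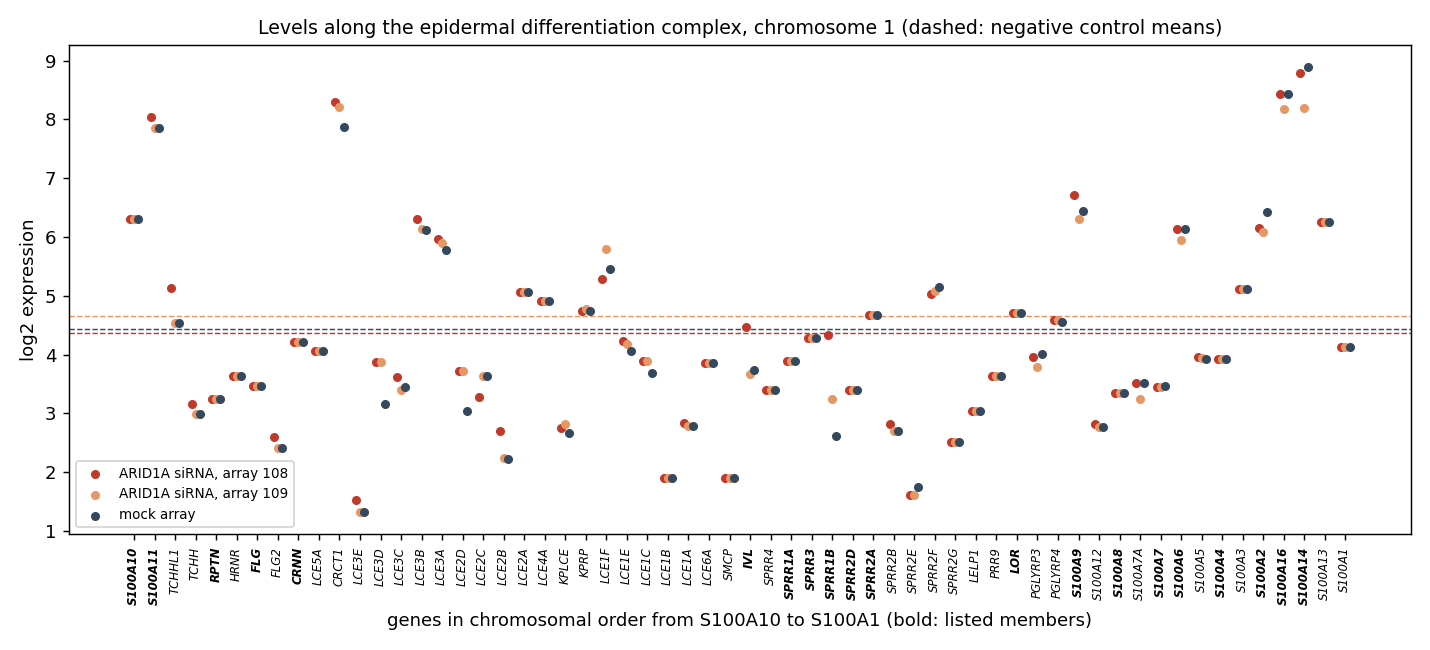
Log2 expression (y axis) of 60 genes in chromosomal order (x axis, evenly spaced, members in bold) on array 108, array 109 and the mock array; dashed lines are the negative control means. Most genes between S100A11 and S100A9 lie below the lines, while CRCT1 lies above them at 7.87 to 8.29.

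The rest of the programme was followed in 8 further lists of 127 genes, of which 98 were tested. Limma called 0 of the 98, and 3 had an unadjusted p under 0.05. On both siRNA arrays 28 were higher (28.6%), against 13.1% of all genes tested, and 10 lower (10.2%), against 16.2%. Among the 62 detected on all arrays, 21 were higher on both (33.9%), against 13.8% of detected genes, and 9 lower (14.5%), against 21.1%. The cytokine IL1A was at least 1.5-fold higher on both, at log2 9.95 and 10.64 against 9.36 on the mock array, and was the 1 gene to do so, while 0 were at least 1.5-fold lower. The median differences on array 108 and array 109 over the genes tested were 0 and 0.02 for late envelope genes, 0.03 and 0.01 for transcription factors, and 0 and -0.10 for crosslinking and protease genes. They were 0 on both for the other 5 lists and for all genes tested.

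Late cornified envelope genes were higher on both siRNA arrays in 5 of 11 tested and lower in 0, but 3 of the 5 (LCE1C, LCE1E and LCE3D) were detected on no array. LCE3A was at log2 5.97 and 5.91, against 5.78 on the mock array, and 12 of the 17 on the array were detected on none. Of the other genes of the complex, 2 of 7 were higher and 2 lower, of which 1 each was detected on all arrays. Of the other S100 genes, 1 of 6 was higher and 0 lower, and the 1, S100A5, was detected on no array.

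Differentiation transcription factors were higher on both siRNA arrays in 7 of 20 and lower in 1, with 6 of the 7 detected on all arrays. KLF4, a regulator of barrier formation, was at log2 5.92 and 6.53, against 5.59 on the mock array. CEBPD was at 8.37 and 7.97, against 7.66, and PRDM1, a repressor active in the granular layer, at 5.34 and 5.94, against 5.08. CEBPA was the 1 that was lower, at 5.86 and 5.83, against 6.09. Some of these factors were higher on array 109 and others on array 108.

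Lipid barrier genes were higher on both siRNA arrays in 5 of 17 and lower in 2, with 4 of the 5 detected on all arrays. ABHD5, a lipase activator, was at log2 7.87 and 7.83, against 7.56 on the mock array, and the fatty acid elongase ELOVL7 at 5.29 on both siRNA arrays, against 5.57. Of the crosslinking and protease genes, 2 of 13 were higher and 3 lower. CST6, a cystatin of the cornified layer, was at 10.10 and 9.85, against 10.47. KLK5, a kallikrein that cleaves corneodesmosin, was at 9.58 and 8.64, against 9.82. PRSS8, prostasin, was at 8.31 and 7.61, against 7.43.

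Other defence genes were higher on both siRNA arrays in 4 of 17 and lower in 1. The chemokine CCL20 was at log2 6.20 and 7.62, against 5.67 on the mock array, and the skin ribonuclease RNASE7 at 8.69 and 8.47, against 8.32. Both IL1A and CCL20 were higher on array 109 than on array 108. Of the other clade B serpins, 2 of 7 were higher and 1 lower. SERPINB7 was at 5.69 and 5.55, against 5.94, and SERPINB1 at 7.19 and 6.93, against 6.73.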

How the data were processed

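Gene expression was measured on 3 Affymetrix Human Gene 2.0 ST arrays, 2 labelled ARID1A siRNA and 1 labelled mock. The authors deposited normalized log2 values for each probe set, made with Affymetrix Expression Console per the submitters' processing notes. For its version, the probe summary and the genome build, the sources used here give nothing. Per the file headers, the authors' tables of each siRNA array repeat them as linear intensity (equal within 5e-05 on the log2 scale), the ratio to the mock array and the negative control mean. Of 53617 probe sets, 31134 had 1 symbol, giving 29402 genes, probe sets of a gene averaged. Each listed gene had 1 probe set. A filter kept the 20582 genes whose mean reached percentile 30.

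Genes were fitted with limma 3.58.1 in R 4.3.3 (two-sided, Benjamini-Hochberg over all genes tested). The prior spread (SD 0.152, 4.49 degrees of freedom) came from genes untied between the siRNA arrays and was applied to all genes. It is assumed that the mock array varies like the siRNA arrays. The fit has 1 residual degree of freedom and was tested on simulated data. A count past 1.5-fold against the mock array needed the brighter side above the negative control mean; between the siRNA arrays it was taken over genes above it on all arrays. The members, lists, fit and naming rule (every member, with array values for the most different, the highest and the near-identical pairs, and up to 4 genes per other list) were chosen with earlier results of these data known. The comparison of the siRNA arrays with each other and the motifs were chosen after the values were seen. Alternatives covered filter, scaling, probe set, source, floor, fold, prior and array left out. Promoters are from RefSeq, GRCh38.p14, by symbol.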

Additional observations from a re-analysis of the deposited data

How the results depend on the processing

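The 1 member at least 1.5-fold higher and the 0 members lower on both siRNA arrays did not change without the filter, with either scaling, with the highest probe set, with the per-sample tables, with the floor or at 1.3-fold; at 2-fold the higher count was 0. Quantile normalization broke ties and gave 8 members higher and 14 lower on both, with a median difference of -0.00228. Median centring gave a median of -0.00299 and the floor at the negative control mean 0.0688. With 1 siRNA array left out, which leaves values with no test, 1 to 2 members were at least 1.5-fold higher and 0 to 2 lower, and 5 to 13 were higher and 7 to 14 lower than on the mock array. The 2 detected members higher on array 109 than on array 108 became 6 with quantile normalization and 11 with median centring, which break ties; these settings were added for this count after the data were seen. The signs of CALML3 (0.0111) and S100A10 (0.0339) turned with quantile normalization, and that of S100P (0.0788) with the floor. S100P lay below the control mean on every array, so its floored value is only the gap between the control means. Every other tested member detected on no array took the same value, which also moved the floored median. With 1 siRNA array left out, the difference ranged from -0.0766 to 0.735 for IVL, -0.174 to 0.329 for SLPI, -0.231 to 0.259 for ELF3, -0.138 to 0.276 for S100A9, -0.325 to 0.0227 for CNFN and -0.258 to 0.181 for CALML3. Limma with a prior fitted on all genes, ties included, called 999 genes higher and 920 lower with a trend over mean level, and 1086 and 1048 without the trend, a setting added after seeing the data. Both called the members CDSN, LCN2 and PI3, and the fit without the trend also S100A10, each tied between the siRNA arrays; the other limma settings called 0. Members near the negative control mean are limited by signal over background, and every value by the number of arrays. No paired analysis was possible because there was only 1 mock array for the 2 siRNA arrays.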
